A study of Mus musculus with 40 samples.

Results

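The genes described here are a panel of 40 proliferation genes, listed by name for their roles in DNA replication and in mitosis. A probe set that carried 1 gene symbol was found for 38 of them, among 12393 genes measured. Ccnb1 and Cdca8 were not analysed here. RNA from mouse lung was hybridised to 40 one-colour Affymetrix arrays, 5 in each of 8 groups: C3H and AJ strains, aspirated with allergen in PBS or with PBS alone, and taken at 24 h or 6 h. Both strains and both times had their own PBS group, so the PBS animals carried the aspiration itself as well. The labels are at odds in places: titles abbreviate the allergen as OVA where descriptions give HDM, so it is called allergen here, and all 40 descriptions name the AJ strain, called hyperresponsive there, although 20 titles carry C3H. Strain was therefore taken from titles. The labels do not say that each numbered array is a separate mouse, nor the age or sex of the animals, so the spread behind each p-value is that between samples and may be technical in part.

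The alveolar surfactant gene Sftpc read between 4206 and 8585 intensity units on all 40 arrays and the club cell gene Scgb1a1 between 4132 and 7444, so both defining lung markers were bright in every library. The members were dimmer. Their mean intensities ran from 11.7 for Cdc6, which loads the replicative helicase, to 697 for Pcna, the sliding clamp of the replication fork; 23 of the 38 averaged under 64 units and 5 under 16. Only 6 of the 38 were brighter than the median gene. Intensities of different genes rest on different probes, so levels are compared within a gene. In whole lung, more dividing cells and more RNA per cell cannot be told apart.

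Before a cell copies its DNA, E2F transcription factors switch on the genes of the replication machinery: the helicase subunits Mcm2 to Mcm7, the loader Cdc6, the clamp Pcna, and the enzymes that supply deoxynucleotides, Rrm1, Rrm2, Tk1 and Tyms. Later, in G2 and mitosis, genes for cyclins, spindle motors, kinetochore proteins and the anaphase-promoting complex follow. Many of these genes are held down in resting cells by the DREAM complex, which binds at short promoter elements called CHR, often beside CCAAT boxes bound by NF-Y. Adult lung divides little at rest, and its proliferation genes are used as a readout of cells entering the cycle.

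The promoter windows of the members were read for the letters of these elements. RefSeq windows of build GRCm38.p6, from 250 bases before to 50 after a gene's start, matched 32 of the 38 members and 9887 of all genes tested. The E2F letters TTCCCGC or TTGGCGC, on either strand, lay in 6 of 11 replication windows (54.5%), in 2 of 21 windows of the other members (9.52%) and in 11.0% of all windows. The CHR letters TTTGAA lay in 1 of 11 replication windows (9.09%), in 14 of 21 others (66.7%) and in 13.0% of all windows. The variant TTTAAA lay in 27.3%, 23.8% and 9.99% in that order, and CCAAT in 72.7%, 76.2% and 38.1%. TTGGCGC can share its bases with a CCAAT on the other strand. The 4 windows shown are of genes that rose in C3H lungs 24 h after allergen, and were picked because they hold these letters. Of the other 5 genes that rose there, Tk1, Rrm2 and Birc5 hold neither the E2F letters nor TTTGAA, and Tk1 and Birc5 hold no CCAAT. Tk1, Rrm2 and Birc5 each hold 1 match to the variant TTTAAA. Ube2c and Kif22 hold both TTTGAA and CCAAT. A match is a description of the letters and no evidence of binding. Capitals mark every match to those motifs on either strand. Mcm3 at chr1:20820263-20820562 (minus strand) and Mcm5 at chr8:75109259-75109558 (plus strand) are helicase subunits with 3 and 2 matches to the E2F letters. In Mcm3, 2 of the 3 are TTGGCGC matches on opposite strands that share bases. Mki67, the nuclear antigen Ki-67 of cycling cells, at chr7:135716330-135716629 (minus strand), and Top2a, the topoisomerase that untangles replicated chromosomes, at chr11:99024140-99024439 (minus strand), each hold 2 TTTGAA matches and several CCAAT matches. The Mki67 window also holds 1 match to the E2F letters TTGGCGC.
Mcm3: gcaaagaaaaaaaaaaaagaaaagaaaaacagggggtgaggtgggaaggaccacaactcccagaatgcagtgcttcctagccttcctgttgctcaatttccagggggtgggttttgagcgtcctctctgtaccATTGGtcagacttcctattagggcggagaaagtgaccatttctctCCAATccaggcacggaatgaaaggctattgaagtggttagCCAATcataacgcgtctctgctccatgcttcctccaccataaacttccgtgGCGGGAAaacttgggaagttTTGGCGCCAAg
Mcm5: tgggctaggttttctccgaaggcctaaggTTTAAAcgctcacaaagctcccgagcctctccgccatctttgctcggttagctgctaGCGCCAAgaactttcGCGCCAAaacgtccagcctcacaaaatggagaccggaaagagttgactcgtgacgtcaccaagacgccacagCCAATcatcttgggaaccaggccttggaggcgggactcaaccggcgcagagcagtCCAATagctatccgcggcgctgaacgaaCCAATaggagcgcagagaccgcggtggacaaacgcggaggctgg
Mki67: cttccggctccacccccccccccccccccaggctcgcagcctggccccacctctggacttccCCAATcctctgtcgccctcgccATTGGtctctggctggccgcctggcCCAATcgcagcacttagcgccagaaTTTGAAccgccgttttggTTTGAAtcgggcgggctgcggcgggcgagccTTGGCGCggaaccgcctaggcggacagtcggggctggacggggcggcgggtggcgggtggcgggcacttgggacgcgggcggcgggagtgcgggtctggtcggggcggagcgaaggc
Top2a: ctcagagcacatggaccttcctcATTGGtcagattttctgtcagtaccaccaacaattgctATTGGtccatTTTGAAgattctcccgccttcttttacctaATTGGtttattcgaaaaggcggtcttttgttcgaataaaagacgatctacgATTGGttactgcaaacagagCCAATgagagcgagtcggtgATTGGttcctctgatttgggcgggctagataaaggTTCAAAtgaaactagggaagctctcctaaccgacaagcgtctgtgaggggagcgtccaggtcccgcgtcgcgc

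In C3H lungs 24 h after allergen, 9 of the 38 members rose relative to C3H PBS lungs at 24 h and none fell. They were the replication genes Mcm5, Rrm2, Tk1 and Mcm3, the chromosome proteins Mki67 and Top2a, the survivin gene Birc5, the ubiquitin-conjugating enzyme Ube2c and the chromosome motor Kif22. Over all genes, 3.24% changed in this comparison (2.1% rose). Fold changes were above 0 for 36 of the 38 members, with a median log2 fold change of 0.38 against -0.044 over all genes. All 12 replication members were above 0, with a median of 0.51. Rises and falls were called with limma at an adjusted p under 0.05, with Benjamini-Hochberg adjustment over all 12393 genes. Levels were taken as log2(intensity + 16), a scale that understates the fold change of dim genes. In 7 members every C3H allergen array was above every C3H PBS array, a pattern found in 2.59% of all genes: Tk1, Birc5, Kif22, Mki67, Mad2l1, Cdc20 and Kif11. Of these, Mad2l1, Cdc20 and Kif11 did not pass the test.

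**Figure D1:**
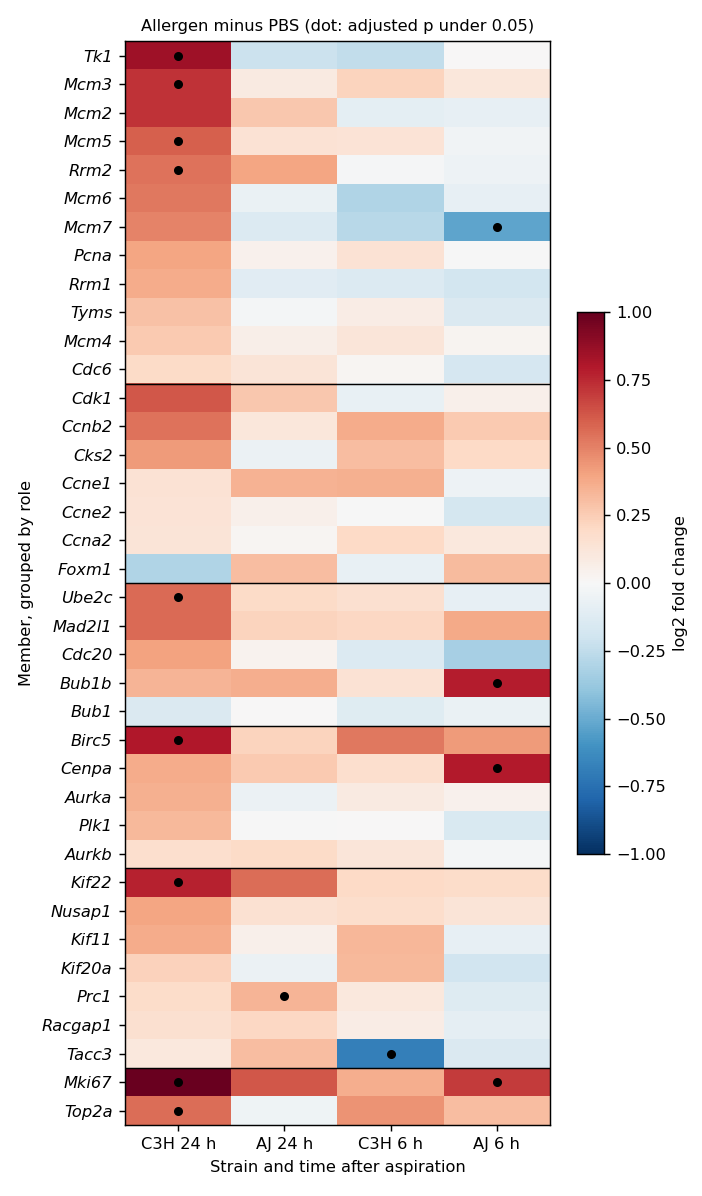
Log2 fold change of allergen over PBS for the 38 members (rows, grouped by role from replication at the top to chromosome proteins at the bottom) in the 4 strain and time combinations (columns); colour runs from blue (lower with allergen) to red (higher), and a dot marks an adjusted p under 0.05. The C3H 24 h column is red in 36 of 38 rows and holds 9 dots, against 1 in AJ at 24 h, 1 in C3H at 6 h and 4 in AJ at 6 h.

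The replication genes were led by Tk1, the thymidine kinase of S phase. It read 56.0, 105, 101, 86.3 and 72.5 units on the 5 C3H allergen arrays at 24 h, against 41.4, 38.6, 32.1, 42.2 and 39.6 on the 5 C3H PBS arrays. The groups did not overlap, and the log2 fold change was 0.85 ± 0.24 (SE, limma adjusted p = 0.0404). Mcm5 read 118, 165, 104, 96.8 and 83.2 with allergen and 66.6, 72.5, 79.5, 87.5 and 40.9 with PBS. Allergen replicate 2 was the highest, and 1 PBS array lay above the lowest allergen array; the change was 0.60 ± 0.15 (SE, limma adjusted p = 0.0219). Rrm2, the small subunit of ribonucleotide reductase, read 114, 170.2, 149, 158 and 91.5 with allergen against 76.8, 88.8, 104, 93.3 and 74.3 with PBS. Its lowest allergen array lay within the PBS range, and the change was 0.54 ± 0.15 (SE, limma adjusted p = 0.0384). Both other Rrm2 probe sets were also above 0, at 0.65 and 0.79. Mcm3 read 174, 179, 150.2, 120.5 and 94.4 with allergen against 72.1, 74.1, 98.0, 102 and 54.7 with PBS, with allergen replicate 5 inside the PBS range and a change of 0.72 ± 0.21 (SE, limma adjusted p = 0.0493). Of 4 other Mcm3 probe sets, 3 were above 0 and 1 was at -0.49.

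The other 8 replication members did not pass at 24 h in C3H. Mcm2 had a log2 fold change of 0.72, Mcm6 of 0.52 and Mcm7 of 0.50, with limma adjusted p of 0.219, 0.127 and 0.0586. Mcm7 read 470.1, 509, 383, 424 and 291 with allergen against 262, 332, 267, 286 and 279 with PBS, so 4 of 5 allergen arrays were above all PBS arrays. Pcna, Rrm1, Tyms, Mcm4 and Cdc6 lay between 0.19 and 0.39.

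Among chromosome proteins, both members rose in C3H at 24 h. Mki67 read 105, 108, 79.2, 97.3 and 88.3 with allergen against 24.1, 50.2, 47.7, 51.4 and 32.1 with PBS. Every allergen array was above every PBS array, and the change of 0.99 ± 0.25 (SE, limma adjusted p = 0.0224) was the largest of any member there. Top2a read 149, 143, 140, 153 and 90.2 with allergen against 83.0, 89.7, 99.2, 84.0 and 72.9 with PBS. Replicates 1 to 4 lay within 140 to 153 units with allergen, and allergen replicate 5 lay inside the PBS range; the change was 0.56 ± 0.16 (SE, limma adjusted p = 0.0493). A second, dimmer Top2a probe set was at 0.01.

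Mitotic regulators were less uniform. Birc5, a subunit of the chromosomal passenger complex, read 87.4, 109, 88.2, 77.3 and 70.3 with allergen against 36.0, 57.3, 56.5, 42.5 and 25.4 with PBS, with no overlap and a change of 0.80 ± 0.20 (SE, limma adjusted p = 0.0191). Ube2c, which works with the anaphase-promoting complex, read 62.6, 64.7, 53.7, 72.3 and 68.8 against 29.0, 54.5, 33.6, 34.6 and 42.2, and 1 PBS array was above the lowest allergen array. Its change was 0.57 ± 0.16 (SE, limma adjusted p = 0.0358). Kif22, a motor that moves chromosome arms, read 80.0, 89.4, 63.9, 83.5 and 38.05 with allergen against 37.1, 35.9, 30.3, 36.7 and 29.4 with PBS. The groups did not overlap, though allergen replicate 5 was close to the highest PBS array, and the change was 0.77 ± 0.22 (SE, limma adjusted p = 0.0487). Of 7 cyclin and CDK members none passed: Cdk1 was at 0.62, Ccnb2 at 0.54 and Cks2 at 0.42, while Foxm1, the transcription factor of G2 genes, was at -0.30 (adjusted p = 0.348). Bub1, a spindle checkpoint kinase, was the other member below 0, at -0.15. Aurka, Aurkb and Plk1, the mitotic kinases, lay between 0.17 and 0.36 and did not pass.

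**Figure D2:**
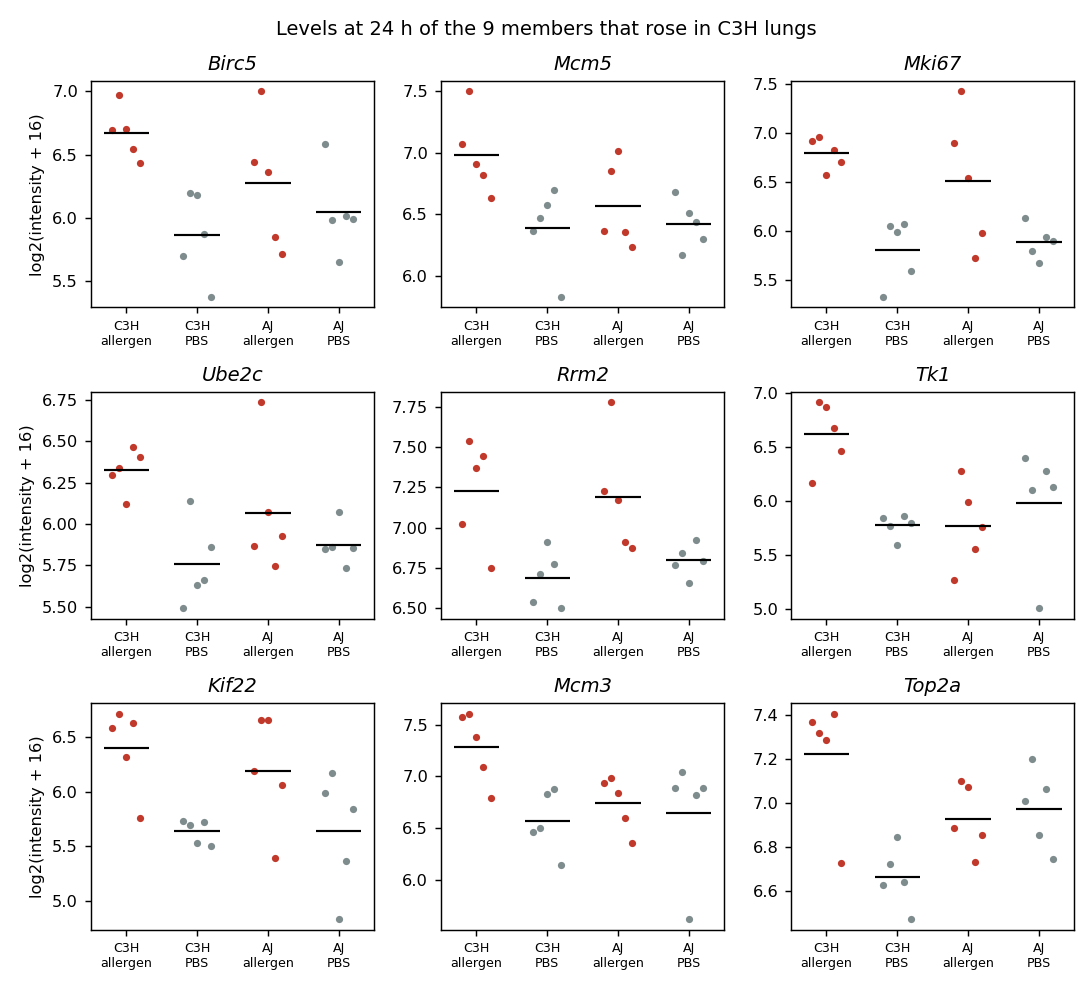
Log2(intensity + 16) at 24 h of the 9 members that rose in C3H lungs, in C3H allergen, C3H PBS, AJ allergen and AJ PBS arrays (5 points each, in replicate order; lines are means). Mki67, Birc5, Tk1 and Kif22 show no overlap between C3H allergen and C3H PBS, while AJ allergen and AJ PBS arrays overlap in all 9 panels.

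The calls in C3H at 24 h rested on few arrays, whereas the members' median did not. With 1 array left out, the median stayed between 0.35 and 0.43. The count of members that rose was 0 without allergen replicate 2, 2 without allergen replicate 1, 4 without allergen replicate 3 and 5 without allergen replicate 4. It was 1 without PBS replicate 1, 4 without PBS replicate 3, 4 without PBS replicate 4 and 0 without PBS replicate 5, against 6 and 10 for the remaining arrays. Single calls held in 7 of these 10 fits for Birc5 and Mcm5, in 6 for Mki67, and in 1 to 3 for the other 6 members. Over all genes these fits called between 188 and 620 genes, against 402 with every array. Other probe sets of the members had the sign of the chosen one in 29 of 34 cases.

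Markers of other cells moved in the same comparison. Macrophage markers rose for 6 of 9 genes, and their summed intensity was 4877 to 6072 in C3H allergen arrays at 24 h, against 3031 to 3295 in C3H PBS arrays. T and NK cell markers rose for 3 of 9 genes, with sums of 456 to 1378 against 431 to 576. The highest of these was allergen replicate 2, whose mean T and NK log2 level of 7.21 compares with 5.78 to 6.37 in the other 4 allergen arrays; it also held the highest value of 18 of the 38 members. B and plasma cell markers rose for 1 of 7 genes, with sums of 1879 to 5886 against 1920 to 2751. Bright genes weigh most in all these marker sums: over all arrays the B and plasma cell marker Xbp1 had a median of 1789 units and Pax5 of 7.63. No neutrophil marker of 9 and no granulocyte precursor marker of 5 passed, and the neutrophil sums were 930.4 to 1313 against 726 to 1104. Of the endothelial markers 1 of 8 rose and 1 fell, and no marker of lung epithelium (8), muscle (8), erythroid cells (5) or fat (4) passed. Their part in the result was not tested.

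In AJ lungs at 24 h, 1 member of 38 rose and none fell, where 7.84% of all genes changed. Fold changes were above 0 for 28 members, with a median of 0.12 against -0.0044 over all genes. Prc1, which bundles the midzone microtubules during cytokinesis, was the member that rose. It read 74.8, 78.4, 76.9, 66.6 and 68.4 with allergen against 52.9, 55.7, 54.4, 67.0 and 42.4 with PBS. The highest PBS array lay just above the lowest allergen array, and the change was 0.34 ± 0.11 (SE, limma adjusted p = 0.0372). The Prc1 call held in 3 of 10 fits that left out 1 array. It was lost with the mean of all probe sets, an intensity trend and only the groups compared. Over the other settings the Prc1 value ran from 0.12 to 0.43, and Prc1 has 2 probe sets. No member passed without any one of allergen replicates 1, 2 and 3 or PBS replicates 1, 2, 3 and 5, and 3 members passed without allergen replicate 4. Mki67 read 103, 156, 77.3, 36.7 and 47.2 in AJ allergen arrays against 54.2, 39.6, 35.1, 45.3 and 43.8 in AJ PBS arrays: 3 allergen arrays were above all PBS arrays and 2 were within their range, and the fold change of 0.62 did not pass (adjusted p = 0.145). Replication members were spread around 0, 7 of 12 above it, with a median of 0.053. Allergen replicate 2 held the highest value of 23 members, and without it the median of the 38 members was 0.028. Macrophage markers rose for 8 of 9 genes in AJ at 24 h, with sums of 6374 to 8456 against 2550 to 2979 in AJ PBS arrays, T and NK cell markers for 3 of 9, with sums of 621 to 1687 against 374 to 548, neutrophil markers for 3 of 9, with sums of 1736 to 5356 against 809 to 964, and B and plasma cell markers for 4 of 7. Muscle markers fell for 4 of 8 genes, with sums of 1943 to 5818 against 5071 to 9343. Their part in the result was not tested.

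**Figure D3:**
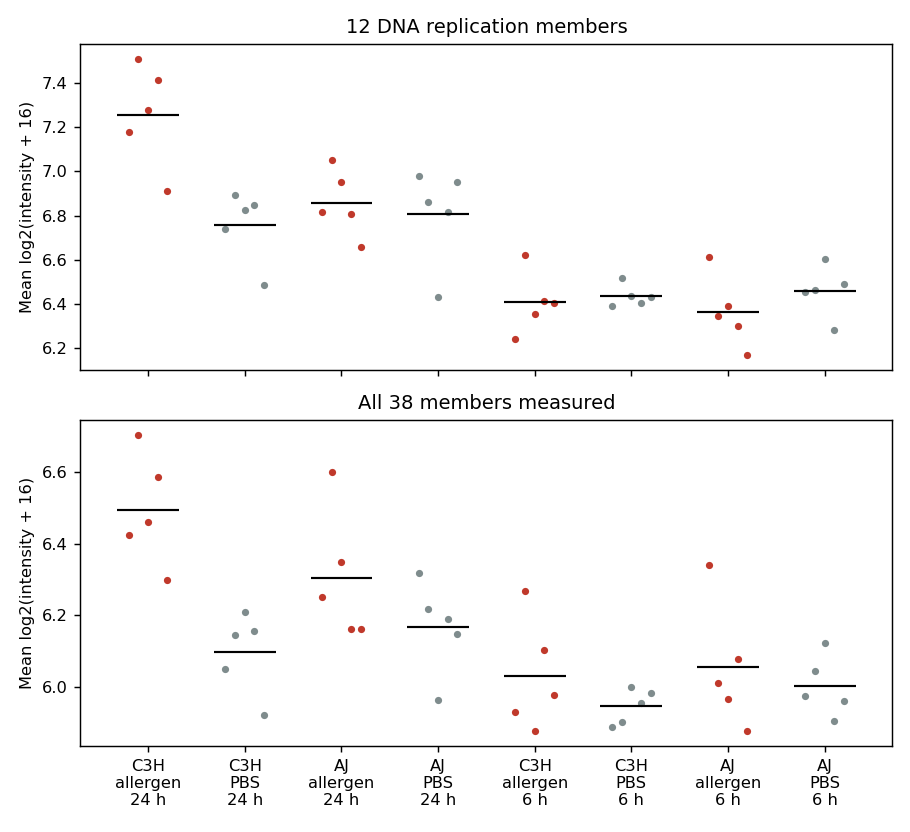
Mean log2(intensity + 16) per array over the 12 replication members (top) and all 38 members (bottom), with 5 arrays a group in replicate order, red for allergen, grey for PBS and a line for the group mean. C3H allergen arrays at 24 h span 6.91 to 7.51 over the replication members, above the 6.49 to 6.89 of C3H PBS arrays at 24 h, and each group mean at 24 h lies above the mean of the same strain and treatment at 6 h.

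In AJ lungs at 6 h, 3 of 38 members rose, the checkpoint kinase Bub1b, the centromeric histone Cenpa and Mki67, and Mcm7 fell, where 19.0% of all genes changed, a larger share than among the members. The median of the 38 members was -0.027 against -0.067 over all genes, and 17 were above 0. The members' median was 0.030 under median centring and 0.015 under quantile normalization, and ran from -0.088 to 0.043 with 1 array left out, so its sign was not settled. Replication members were above 0 in 3 of 12 cases.

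Bub1b read 38.7, 41.5, 48.8, 15.8 and 16.8 in AJ allergen arrays at 6 h against 8.14, 10.7, 10.02, 14.4 and 11.8 in AJ PBS arrays. All allergen arrays were above all PBS arrays, 3 of them at 38.7 units or more, and the change was 0.78 ± 0.18 (SE, limma adjusted p = 0.00157). Cenpa read 46.6, 39.0, 23.4, 36.8 and 35.3 with allergen against 12.4, 17.9, 22.7, 2.77 and 17.7 with PBS, again without overlap, for a change of 0.79 ± 0.21 (SE, limma adjusted p = 0.00507). Both genes were dim: with pseudocounts of 1 and 64 the change was 1.35 and 0.35 for Bub1b and 1.45 and 0.35 for Cenpa, and both were among the members dropped with the dimmest 25% of genes. Mki67 read 144, 116, 57.9, 63.9 and 56.9 with allergen against 40.9, 47.2, 54.5, 43.8 and 36.5 with PBS. Replicates 1 and 2 were well above the rest and the lowest allergen array was just above the highest PBS array; the change was 0.70 ± 0.25 (SE, limma adjusted p = 0.0454), and it passed in 4 of 10 fits that left out 1 array. Mcm7 read 208, 121, 125, 136 and 158 with allergen against 219, 224, 229, 163 and 276 with PBS. Of the 5 allergen arrays, 4 were below all PBS arrays, and the change was -0.53 ± 0.15 (SE, limma adjusted p = 0.00985). Its 3 other probe sets were at 0.15, -0.34 and -0.17, and the call was lost when all probe sets were averaged. The calls of Bub1b, Cenpa and Mcm7 held in 10 of 10 fits that left out 1 array.

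Neutrophil markers rose for 8 of 9 genes in AJ lungs at 6 h, with sums of 5980 to 8857 in allergen arrays, against 794 to 1689 in AJ PBS arrays. Macrophage markers rose for 6 of 9 genes, with sums of 4744 to 6080 against 2505 to 3013. T and NK cell markers rose for 3 of 9 genes and B and plasma cell markers for 4 of 7. Of 5 granulocyte precursor markers, none passed. Endothelial markers fell for 3 of 8 genes, with sums of 4824 to 7014 against 7488 to 8502. Their part in the result was not tested.

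In C3H lungs at 6 h, 1 member of 38 passed, where 7.62% of all genes changed. It was Tacc3, a centrosomal protein that stabilises spindle microtubules. It read 29.5, 21.7, 29.0, 47.7 and 16.2 in C3H allergen arrays at 6 h against 43.6, 44.9, 62.8, 79.7 and 45.8 in C3H PBS arrays, where 1 allergen array lay inside the PBS range. The change was -0.68 ± 0.22 (SE, limma adjusted p = 0.0468), and it passed in 2 of 10 fits that left out 1 array. The Tacc3 call was lost with a pseudocount of 1, the mean of its 3 probe sets and only the groups compared. Over the other settings its value ran from -0.97 to -0.18. No member passed without any one of PBS replicates 2, 3 and 4 or allergen replicates 2 and 5. Tacc3 was replaced by a rise of Top2a without PBS replicate 1 or allergen replicate 1, and by a rise of Birc5 without allergen replicate 3. Fold changes were above 0 for 26 members, with a median of 0.12 against -0.0016 over all genes. Birc5 was at 0.53 and Top2a at 0.45, with adjusted p of 0.11 and 0.0896. Allergen replicate 2 held the highest value of 23 of the 38 members, and without it the median was 0.072. Neutrophil markers rose for 4 of 9 genes, with sums of 1588 to 9218 against 827 to 2218, and macrophage markers for 5 of 9, with sums of 3902 to 6165 against 2753 to 3498. Endothelial markers fell for 3 of 8 genes. Their part in the result was not tested.

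The design also asks whether the response to allergen differed between strains and between times. In none of these 4 tests did a member pass. The C3H minus AJ difference of the allergen effect at 24 h had a median of 0.325 over the members and -0.037 over all genes, of which 0.46% passed. It was above 0 for 30 of 38 members and for 12 of 12 replication members, and 10 members had an unadjusted p under 0.05, as did 1558 of 12393 genes. Tk1 showed the widest gap: its effect was 0.85 in C3H and -0.21 in AJ, a difference of 1.06 ± 0.34 (SE, limma adjusted p = 0.161). AJ allergen arrays at 24 h read 22.5, 61.5, 47.7, 30.9 and 37.96 units for Tk1, against 68.6, 52.5, 16.1, 61.5 and 54.0 in AJ PBS arrays, so the AJ groups overlapped and 1 AJ PBS array was far below the others. Without that array 1 member passed this test. At 6 h the median was 0.11, and 2.15% of all genes passed.

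Between times, the 24 h minus 6 h difference of the allergen effect had a median of 0.235 in C3H, above 0 for 33 of 38 members, where 0.88% of all genes passed. Mcm7 came closest to passing, with an effect of 0.50 at 24 h and -0.28 at 6 h and a difference of 0.78 ± 0.21 (SE, limma adjusted p = 0.0715). In AJ the median was 0.10, and 5.62% of all genes passed. Prc1 came closest there, at 0.47 ± 0.15 (SE, limma adjusted p = 0.0537). The 24 h allergen groups enter both the strain and the time differences, so these values are not separate lines of evidence. The same holds for the comparisons of strains and of times among allergen arrays given next, which use the same arrays again.

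Strains were also set against each other within a treatment. Among PBS arrays no member differed between C3H and AJ at 24 h, where 1.93% of all genes did, or at 6 h, where 4.45% did. Among allergen arrays at 24 h, 3 of 38 members differed and 7.13% of all genes did. Tk1 was higher in C3H by 0.85 ± 0.24 (SE, limma adjusted p = 0.023) and Mcm7 by 0.52 ± 0.15 (SE, limma adjusted p = 0.0269). The Tk1 call held in 6 of 10 fits that left out 1 array and was lost with a pseudocount of 1. That of Mcm7 held in 5 of 10 and was lost with only the groups compared. Foxm1 was lower in C3H, with 62.0, 119, 95.3, 169.9 and 78.7 units in C3H allergen arrays against 146, 170.1, 171, 129 and 152 in AJ allergen arrays, a difference of -0.55 ± 0.17 (SE, limma adjusted p = 0.0363). Replicate 4 of C3H lay near the top of the AJ range, and the Foxm1 call was lost under median centring, quantile normalization, the mean of all probe sets and only the groups compared, and held in 3 of 10 fits that left out 1 array. Markers of other cells also differed between C3H and AJ allergen arrays at 24 h: 4 of 9 neutrophil markers were lower in C3H, with sums of 930.4 to 1313 against 1736 to 5356, 3 of 9 macrophage markers were lower, with sums of 4877 to 6072 against 6374 to 8456, and 5 of 8 muscle markers were higher, with sums of 2206 to 8805 against 1943 to 5818. Their part in the result was not tested. Of the 3 calls, 1 was left without any one of C3H replicates 1, 2 and 3 or AJ replicates 1, 2, 4 and 5. All 12 replication members were above 0 in this C3H minus AJ difference, with a median of 0.40. Among allergen arrays at 6 h, Bub1b alone differed, at -0.79 ± 0.18 (SE, limma adjusted p = 0.00338), where 9.31% of all genes did; C3H allergen arrays read 12.4, 14.7, 9.47, 10.4 and 7.63 against the AJ values given above, without overlap.

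Levels at 24 h were also compared with levels at 6 h within each treatment. In C3H allergen arrays, 15 of 38 members were higher at 24 h than at 6 h and none were lower. Over all genes 20.8% changed and 10.2% rose. The 15 held 9 of the 12 replication members, with a median over all 12 of 0.90 and of -0.042 over all genes. The others were Cdk1, the mitotic kinase, its partner Cks2, Mad2l1 of the spindle checkpoint, Birc5, Mki67 and Top2a. The count was 9 without C3H allergen replicate 2 at 24 h and 9 without C3H allergen replicate 1 at 6 h.

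Tk1 read 56.0, 105, 101, 86.3 and 72.5 units in C3H allergen arrays at 24 h against 5.398, 15.5, 12.6, 26.0 and 23.9 at 6 h, a difference of 1.63 ± 0.24 (SE, limma adjusted p = 6.01e-06). Mcm6 read 238, 266, 254, 274 and 150.3 at 24 h and 67.5, 116, 85.3, 56.6 and 83.1 at 6 h, a difference of 1.37 ± 0.19 (SE, limma adjusted p = 2.57e-06). Mcm7 read 470.1, 509, 383, 424 and 291 at 24 h and 139, 224, 175, 197 and 169 at 6 h, a difference of 1.13 ± 0.15 (SE, limma adjusted p = 1.37e-06). Neither Tk1, Mcm6 nor Mcm7 overlapped between the times in these arrays. Mcm5, Rrm2 and Mcm2 differed by 1.10, 1.03 and 1.27. Of the 9 replication members that passed, all but Mcm4 passed in each of 10 fits that left out 1 array, and Mcm4 in 3 of them. The other calls held less often: Cks2 in 8, Cdk1 in 5, Birc5 and Top2a in 4, and Mki67 and Mad2l1 in 2 of 10. Markers of other cells moved in the same comparison. Of 9 neutrophil markers, 7 were lower at 24 h, with sums of 930.4 to 1313 at 24 h against 1588 to 9218 at 6 h, and 4 of 8 endothelial markers were higher, with sums of 7018 to 9136 against 4898 to 7363. Their part in the result was not tested.

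Some of these differences were also present without allergen. In AJ PBS arrays 3 members were higher at 24 h than at 6 h, where 5.37% of all genes changed. Mcm5 differed by 0.64 ± 0.15 (SE, limma adjusted p = 0.00887), Mcm6 by 0.77 ± 0.19 (SE, limma adjusted p = 0.0135) and Tk1 by 0.87 ± 0.24 (SE, limma adjusted p = 0.0254). In C3H PBS arrays 2 members passed, where 3.21% of all genes changed. Mcm5 read 66.6, 72.5, 79.5, 87.5 and 40.9 at 24 h against 41.2, 38.6, 33.8, 38.2 and 37.2 at 6 h, a difference of 0.64 ± 0.15 (SE, limma adjusted p = 0.0113) in which 1 array at 24 h lay within the 6 h range. Tacc3 was lower at 24 h, with a difference of -0.76 ± 0.22 (SE, limma adjusted p = 0.0428). The Tk1 call in AJ held in 4 of 10 fits that left out 1 array and the Tacc3 call in C3H in 5, and both were lost with a pseudocount of 1 and with only the groups compared, which also lost Mcm5 in C3H. With 1 array left out, the calls of Mcm5 in both strains and of Mcm6 in AJ held in 10 of 10 fits. The median of the 12 replication members was 0.36 in C3H PBS arrays and 0.34 in AJ PBS arrays, against -0.0040 and -0.015 over all genes. The 26 members outside replication had medians of 0.071 and 0.052. In AJ allergen arrays 5 members were higher at 24 h (Rrm2, Mcm7, Mcm5, Mcm6 and Prc1) and Bub1b was lower, where 19.1% of all genes changed. The Prc1 call there was lost with the mean of all probe sets, and that of Bub1b with only the groups compared. The labels link no array at 24 h with one at 6 h, and give no time of day of collection.

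**Figure D4:**
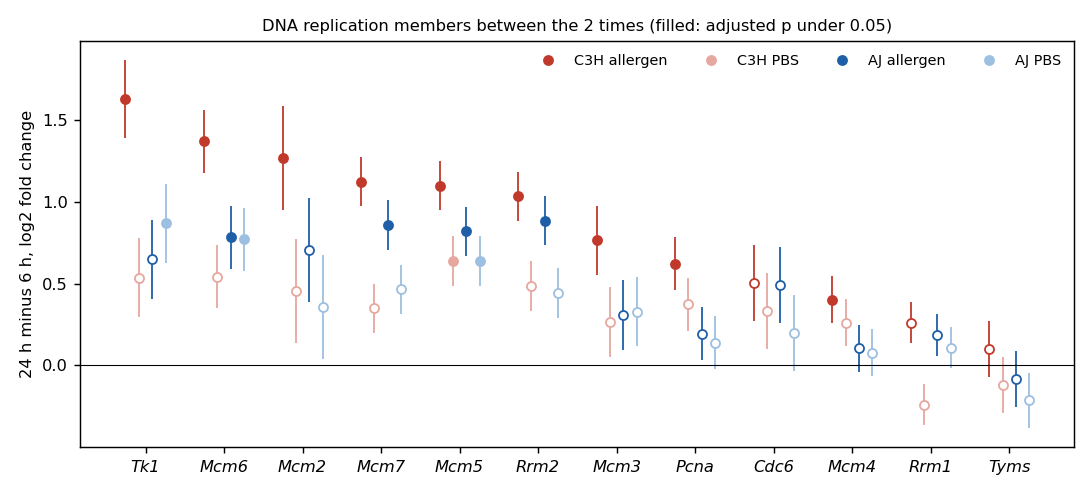
Difference between 24 h and 6 h (log2 fold change, points with limma standard errors) for the 12 replication members in C3H allergen, C3H PBS, AJ allergen and AJ PBS arrays; filled points have an adjusted p under 0.05. C3H allergen arrays show the largest value for each of the 12 genes, and Mcm5 is filled in all 4 groups.

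Of 145 other cell cycle genes, grouped by role, those of replication are given first, in C3H at 24 h. Of 38, 32 were above 0, with a median of 0.21 against -0.044 over all genes. In this list 4 rose and none fell, where 3.24% of all genes changed and 2.1% rose. They were Pole, the leading-strand polymerase, at 0.87 ± 0.12 (SE, limma adjusted p = 1.28e-05), Uhrf1, which guides maintenance methylation, at 0.57 (adjusted p = 0.0169), Cdt1, the licensing factor, at 0.51 (0.0234) and the single-strand binding subunit Rpa1 at 0.43 (0.0309). Pole was dim, and its value was 1.88 with a pseudocount of 1 and 0.35 with one of 64. With 1 array left out, the Pole call held in 10 of 10 fits, that of Uhrf1 in 7, of Cdt1 in 5 and of Rpa1 in 3. Pole also differed between strains at 24 h, by 0.86 ± 0.18 (SE, limma adjusted p = 0.0147), where 0.46% of all genes did. Pole was named for its small p in C3H at 24 h, which enters this difference. In AJ at 6 h, 5 genes of the same list fell and none rose, 13.2% of the list against 19.0% of all genes that changed: Pold2 fell by 0.57, Pold1 by 0.49, Dnmt1 by 0.47, Rpa1 by 0.41 and Rpa3 by 0.35 on the log2 scale, with limma adjusted p of 0.000411 to 0.0334.

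Of 44 other mitosis genes, Incenp, a scaffold of the chromosomal passenger complex, rose by 0.57 (adjusted p = 0.001), Cks1b by 0.78 (0.00392) and Melk by 0.36 (0.0154) in C3H at 24 h, and none fell. The Melk value ran from 0.11 to 1.33 over the other settings. Its call was lost with a pseudocount of 64 and with only the groups compared. Cks1b also rose in AJ at 24 h, by 0.65 (0.00812), where the actin-binding anillin gene Anln fell by 0.53 (0.011). At 6 h the mitotic phosphatase Cdc25b fell in both strains, by 0.54 in C3H and 0.58 in AJ, with adjusted p of 0.00318 and 0.00045. No other gene of the 44 passed in these allergen comparisons. Over all genes, 3.24% changed in C3H and 7.84% in AJ at 24 h, and 7.62% in C3H and 19.0% in AJ at 6 h.

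Among 63 cell cycle regulators, 10 rose and 13 fell in AJ at 6 h, 36.5% of the list against 19.0% of all genes. Gadd45g, a stress-induced growth arrest gene, was higher in all 4 allergen comparisons: 1.05 ± 0.21 (SE, limma adjusted p = 0.00175) in C3H and 1.60 in AJ at 24 h, 1.51 in C3H and 2.62 ± 0.21 (SE, limma adjusted p = 2.59e-12) in AJ at 6 h. In AJ at 6 h Myc rose by 1.39, the antiproliferative gene Btg1 by 1.01 and the CDK4 and CDK6 inhibitor Cdkn2d by 0.997, and Ccng2, a cyclin of arrested cells, fell by 1.27, with adjusted p of 8.72e-08 or less. In C3H at 6 h, 4 of the 63 rose and 4 fell, 12.7% against 7.62% of all genes, among them the CDK inhibitor Cdkn2c, which fell by 0.83 (2.73e-05), Btg1, which rose by 0.50, Cdkn2d, which rose by 0.41, and Ccng2, which fell by 0.51. At 24 h 3 of 63 rose and 3 fell in AJ, 9.52% against 7.84% of all genes. Among them Cdkn2d and Myc rose and Tob1 and Gadd45a fell. In C3H at 24 h Gadd45g rose, and the G1 cyclin Ccnd1 (fell by 0.44) and Btg2 (fell by 0.64) were lower. No other gene of the 63 passed there, where 3.24% of all genes changed. With 1 array left out, the Ccnd1 and Btg2 calls each held in 5 of 10 fits. Both were lost with only the groups compared, and Ccnd1 also under median centring and with the mean of all probe sets.

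**Figure D5:**
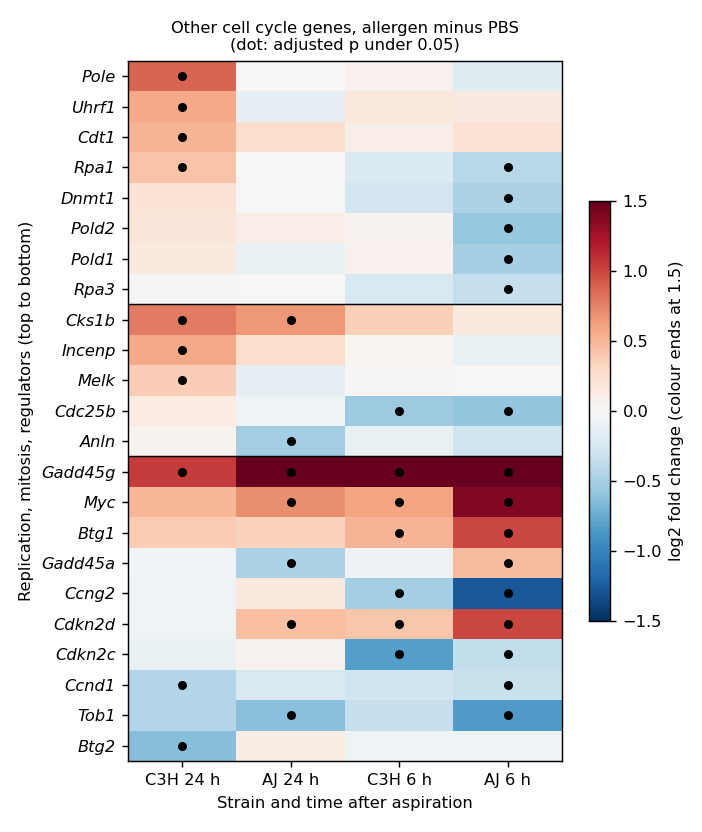
Log2 fold change of allergen over PBS for 23 other cell cycle genes (rows; replication, then mitosis, then regulators) in the 4 strain and time combinations, coloured blue to red with the scale ending at 1.5 either way; a dot marks an adjusted p under 0.05. Pole, Uhrf1, Cdt1 and Rpa1 are marked as higher in C3H at 24 h, and Gadd45g is marked in all 4 columns.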

How the data were processed

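RNA of 40 mouse lung samples was measured on 40 one-colour arrays. The deposited values are linear intensities, 1 for every probe set of an array. Their trimmed means, with 2% cut at each end, ran from 150.036 to 150.046, so the authors' table was already brought to 1 scale; the software and background correction were not given in the sources used here. Per-array medians of the intensity ran from 63.7 to 81.3. No detection calls were used, and precision is limited by the number of arrays. Of 22690 probe sets, 20380 had 1 gene symbol in the platform annotation, 691 had several, 1555 had none and 64 were controls; those with several or none were left out. For each of 12393 genes the probe set with the highest mean was taken; 21 members had more than 1.

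Levels were log2(intensity + 16). With limma 3.58.1 (lmFit and eBayes, R 4.3.3), the 8 groups each got a mean in 1 fit of the 40 arrays, which left 32 residual degrees of freedom. In each of 16 two-sided contrasts, p-values were adjusted over all genes (Benjamini-Hochberg) and called under 0.05. No set test was run. Members, lists and tests were chosen with earlier results of these data known. Any member could be named; values on every array were given for the 14 that passed an allergen or interaction contrast, with others singled out by role, and other cell cycle genes were named by smallest adjusted p, up to 5 a list and allergen contrast. Foxm1 and Mcm6 were given array by array after their values were seen. Alternatives were other scalings, pseudocounts of 1 and 64, no genes of the dimmest 25%, the mean of all probe sets, an intensity trend, array weights, only the groups compared, the array number as a block, and each array left out. Promoter windows came from RefSeq, 1 per gene. Groups in which markers are summed cover neutrophils, granulocyte precursors, macrophages, T and NK cells, B and plasma cells, erythroid cells, lung epithelium, endothelium, muscle and fat.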

Additional observations from a re-analysis of the deposited data

Results flagged for a closer look

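Levels on single arrays stood apart from the other 4 of their group, in log2(intensity + 16), when the gap to the nearest array took up more than 0.71 of the group's range. Chance alone flags about 1 in 20 groups, and 10 of 128 groups tested were picked out. In C3H at 24 h, Top2a was lowest on allergen replicate 5, at 6.73. In AJ at 24 h, Bub1b was highest on allergen replicate 2, at 5.65, and PBS replicate 3 was lowest for both Tk1, at 5.004, and Mcm3, at 5.61. In C3H at 6 h, Mki67 was lowest on PBS replicate 2, at 4.98, and Rrm2 highest on PBS replicate 5, at 6.51. In AJ at 6 h, Mcm5 was highest on allergen replicate 1, at 6.05, Prc1 lowest on allergen replicate 2, at 5.84, Mcm3 highest on allergen replicate 4, at 6.67, and Tk1 lowest on PBS replicate 4, at 4.43.

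Of the other cell cycle genes named above for small allergen p-values, 10 had an allergen effect that differed between times or strains (limma interaction, adjusted over all genes). Those p-values came from the same arrays, which favours a pass here, so the count of 10 says nothing about the lists. In the AJ time test, 1 of 38 other replication genes, 1 of 44 other mitosis genes and 9 of 63 regulators passed, against 5.62% of all genes. The 24 h minus 6 h difference in AJ was 1.42 for Ccng2 (adjusted p = 5.95e-06), 0.66 for Pold2, -0.66 for Btg1, -0.54 for Cdkn2d, -0.95 for Gadd45a and -1.03 for Gadd45g. The same difference in C3H was 0.81 for Pole (0.87 at 24 h and 0.06 at 6 h), 0.65 for Rpa1, 0.67 for Cdc25b and 0.73 for Cdkn2c. In that test 0.88% of all genes passed. The C3H minus AJ difference was 0.86 for Pole at 24 h, and at 6 h it was 0.77 for Ccng2, 0.62 for Pold2, -0.59 for Cdkn2d and -1.11 for Gadd45g. Over all genes, 0.46% passed this strain test at 24 h and 2.15% at 6 h.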

How the results depend on the processing

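The C3H rise at 24 h was the result most open to the settings: 9 members passed, against 4 with a pseudocount of 1, 5 with only the groups compared, 6 with an intensity trend, 12 with the mean of all probe sets, 13 with array weights and 0 to 10 with 1 array left out, while the median log2 fold change stayed between 0.26 and 0.52 over all settings. In AJ at 24 h the count of 1 was 0 with the mean of all probe sets, an intensity trend or only the groups compared, and 0 to 3 with 1 array left out. In AJ at 6 h the count of 4 was 2 without the dimmest 25% of genes, a filter that dropped 13 members. In C3H at 6 h the count of 1 was 0 with a pseudocount of 1, without the dimmest genes, with the mean of all probe sets or with only the groups compared, and 0 to 1 with 1 array left out; in 3 of those fits the call was a rise of Top2a or Birc5 in place of Tacc3.

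For the time difference of the allergen effect, 0 members became 1 in AJ with a pseudocount of 64, without the dimmest genes, with array weights or with only the groups compared, and 1 in C3H with the mean of all probe sets or array weights. With 1 array left out it was 0 to 1 in both strains (1 without AJ PBS replicate 4 at 24 h or 1 at 6 h, and without C3H PBS replicate 5 at 6 h, C3H allergen replicate 5 at 24 h or 2 at 6 h). The strain difference of the effect ran from 0 to 1 at 24 h (1 without AJ PBS replicate 3) and from 0 to 1 at 6 h (1 without AJ PBS replicate 5), as did C3H against AJ in PBS at 6 h (the same array). C3H against AJ with allergen gave 3 at 24 h, 1 with only the groups compared and 1 to 3 with 1 array left out, and at 6 h 1, or 0 without the dimmest genes.

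For 24 h against 6 h, AJ PBS gave 3, against 5 under quantile normalization, 5 with the mean of all probe sets and 7 with array weights. C3H PBS gave 2, against 1 with a pseudocount of 1, 1 without the dimmest genes, 4 with array weights, 0 with only the groups compared and 1 to 3 with 1 array left out (1 without replicates 1, 2 or 4 at 24 h or 3 or 4 at 6 h). AJ allergen gave 6, or 10 with array weights, and C3H allergen 15, or 9 to 16 with 1 array left out. The cause of these changes was not tested.

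Deviations of arrays of the same number were correlated over 28 pairs of groups. The correlation ran from -0.26 to 0.41 with a median of 0.0014, and none had every pair over 0.1. The highest value came from C3H allergen at 24 h against C3H PBS at 6 h. Replicates 1 to 5 there gave 0.22, 0.28, 0.20, 0.41 and -0.057. With the replicate number as a block, 9 members passed in C3H at 24 h and 4 in AJ at 6 h, as without it. Most members were dim, which limits their fold changes.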

Other observations

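Calls in lists of markers not given above follow. Over all genes, 7.84% changed in AJ at 24 h, 19.0% in AJ at 6 h and 7.62% in C3H at 6 h. In AJ lungs, 2 of 8 lung epithelial markers fell at 24 h and 2 of 8 at 6 h, 1 of 4 fat markers fell at 24 h, 1 of 5 erythroid markers fell at 6 h, and at 24 h 1 of 8 endothelial markers rose and 1 fell. In C3H lungs at 6 h, 1 of 8 lung epithelial markers fell, 1 of 9 T and NK cell markers and 2 of 7 B and plasma cell markers rose. No granulocyte precursor marker of 5 passed in any of the 4 allergen comparisons.

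In AJ at 6 h, allergen replicate 1 held the highest value of its group for 21 of 38 members, and in AJ PBS at 24 h replicate 1 did for 16.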
